A study of Mus musculus with 38 samples.

Results

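The data are ribosome profiles of input lysates from resting mouse cortical neurons in which the translation initiation factor eIF4G2 was knocked down, set against resting neurons without siRNA. The members were taken by sample title: the 2 samples titled KD_in_Rest and the 3 titled REST_PSD95_in, 5 of the 38 samples of the series. Ribosome profiling sequences the stretches of mRNA that a ribosome covers and nuclease cannot digest, here called footprints. An input is the monosome fraction of the lysate before streptavidin pulldown, so it samples ribosomes of all cells in the dish and not of dendrites alone.

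Both groups were primary cortical neurons of embryonic CD-1 mice carrying a lentivirus for doxycycline-inducible TurboID-PSD95, a biotin ligase fused to a postsynaptic scaffold. Both received cycloheximide for 2 min and then biotin for 30 min. The knockdown neurons had in addition 20 nM siRNA against eIF4G2 for 72 h, delivered by lipofection. The untreated neurons had neither siRNA nor lipofection. The methods name a non-targeting siRNA control, but none of the 38 samples of the series is titled as one. 1 label of the knockdown inputs names the cytosol, although the virus named for them is the PSD95 construct, as in the untreated group. Per the methods, several dishes were pooled for each sample, and ribosome profiling had 3 biological replicates, the number of untreated samples. The labels do not say whether the 2 knockdown samples came from separate cultures. The p-values thus measure the spread between these samples, which may be technical within the knockdown pair. Headers of the deposited counts place both knockdown inputs in 1 processing run and each untreated replicate in a run of its own. Knockdown, lipofection and experiment batch therefore cannot be told apart in this comparison.

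A further 2 input groups were used as side values. The 3 REST_Pan_in samples are resting inputs from the same runs as the untreated group, with Pan-TurboID, which labels the whole neuron, in place of TurboID-PSD95. The 3 DHPG_in samples share the processing run of the knockdown inputs, carry TurboID-PSD95 and had no eIF4G2 siRNA and, as far as the labels say, no lipofection, but had 100 µM DHPG for 10 min, which activates mGluR1 and mGluR5, after silencing with tetrodotoxin and DL-AP5. The headers name a run of read processing, and the sources used here do not say whether the knockdown and DHPG cultures or libraries were prepared together. A difference from the DHPG inputs thus lies within 1 processing run and perhaps not within 1 batch of cultures, and it holds the drug, the silencing and the lipofection as well as the knockdown. All 3 comparisons share the same 2 knockdown libraries, so their values are set side by side and are not independent of one another. Depolarized inputs were used too: 2 KD_in_Dep samples with eIF4G2 siRNA and 3 DEP_PSD95_in samples without it. Per the methods these neurons were silenced and then had KCl, at 55 mM for 1 h. They enter the fits of 10 inputs and the comparison of rest with KCl.

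eIF4G proteins bridge the mRNA cap complex and the small ribosomal subunit. eIF4G2, also called DAP5 or NAT1, lacks the region that binds the cap-binding protein eIF4E and takes part in initiation that does not use the ordinary cap complex, including initiation after upstream reading frames. It is itself translated from a non-AUG codon. For that reason the starts of the coding sequences of the 3 family members are shown. They come from GENCODE M21 (mm10) transcripts matched by name to those of the deposited counts. Each has 30 bases, 5′ to 3′, with the annotated start codon in capitals.
Eif4g2: GTGgagagtgcgattgcagaagggggtgct
Eif4g1: ATGaacaaagctccccagcccacaggcccc
Eif4g3: ATGaactcacaacctcaggcccggtctccg
The Eif4g2 coding sequence (CDS) lies on the minus strand at chr7:111072692-111081547, is 2721 nt long and is spread over 21 of the transcript's 22 exons. Those of Eif4g1 and Eif4g3 lie on the plus strand at chr16:20673902-20692431 and chr4:138082959-138206154.

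Eif4g2 footprints were lower in both knockdown inputs than in every untreated input. The level, in footprints per 1000000 CDS footprints after TMM scaling over the inputs (CPM), was 284 and 284 CPM in the knockdown inputs and 531, 572 and 578 CPM in the untreated inputs. The knockdown mean was 284 ± 0.0424 CPM (SD, n = 2) and the untreated mean 560.5 ± 25.8 CPM (SD, n = 3), so 50.7% of the footprints were left. The log2 fold change was -0.99 (SE 0.105, edgeR quasi-likelihood FDR 5.07e-04), where FDR is the Benjamini-Hochberg adjusted p over all genes tested. The 3 DHPG inputs stood at 461, 470.3 and 472 CPM, between the groups, and the knockdown inputs were below them too (log2 fold change -0.71, FDR 4.21e-17). Against the Pan-TurboID inputs the log2 fold change was -1.04 (FDR 2.17e-04).

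The paralogs were lower as well. Eif4g1, the main cap-dependent scaffold, was at 628 and 644 CPM in the knockdown inputs and 801, 912 and 1054 CPM in the untreated inputs (log2 fold change -0.55, SE 0.12, FDR 0.0151). Eif4g3 was at 265 and 284 CPM in the knockdown inputs and 381, 435 and 485 CPM in the untreated inputs (log2 fold change -0.67, SE 0.12, FDR 0.00616). Both lay close to the DHPG inputs, at 706, 694 and 722 CPM for Eif4g1 and 296, 299.6 and 309 CPM for Eif4g3, with log2 fold changes against DHPG of -0.15 (FDR 0.00131) and -0.13 (FDR 0.0272). The paralog calls were lost without knockdown replicate 1 or knockdown replicate 2 for Eif4g1 and Eif4g3 (FDR 0.0987 to 0.220).

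**Figure D1:**
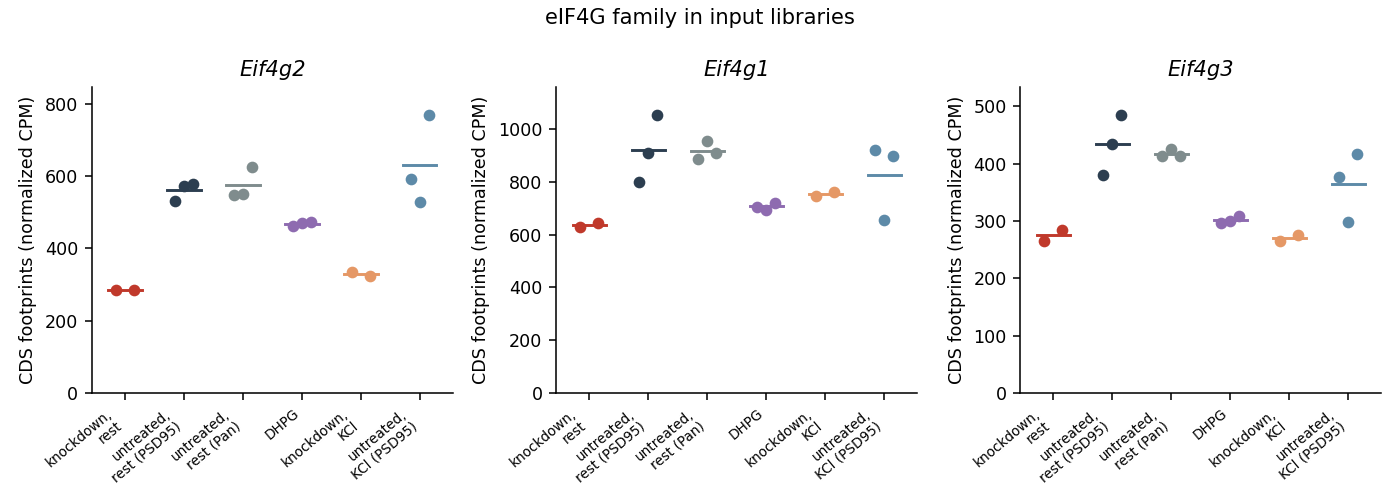
CDS footprints of the 3 eIF4G genes (normalized CPM, linear axis from 0) in 6 groups of inputs; each point is a library and the line is the group mean. The 2 resting knockdown libraries of Eif4g2 sit at 284 and 284 CPM, below every untreated and DHPG library, while for Eif4g1 and Eif4g3 the DHPG libraries lie close to the knockdown ones.

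Counts over the CDS of the transcripts used were 6464209 and 7856261 in the knockdown inputs and ranged from 3845448 to 13016566 in the untreated inputs. Replicates of the knockdown and of the DHPG group lay closer together than those of the untreated group. Set against sampling noise, which gives a chi-square of 1 per gene, the knockdown pair differed by 2.81 per gene, the DHPG pairs by 1.48 to 1.90 and the untreated pairs by 8.61 to 17.5. Total RNA was not analysed here, so a footprint level joins mRNA level and translation.

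Across the transcriptome, 1979 of 12721 genes tested (15.6%) differed between knockdown and untreated inputs at FDR 0.05, 874 higher (6.87%) and 1105 lower (8.69%) in the knockdown. Of all genes tested, 224 were called higher and 387 lower by at least 1 on the log2 scale. The median log2 fold change over all genes was -0.03. These counts lean on having both knockdown libraries: 293 genes were called without knockdown replicate 1 and 265 without knockdown replicate 2, where the lone sample is assumed to vary like the untreated ones, and 3246 without untreated replicate 1. Of the 110 genes past the threshold that the rule for named genes picked besides Eif4g2, 53 kept the call whichever of the 5 libraries was left out, and the losses are given beside the genes named below. Against the Pan-TurboID inputs 16.7% of 12687 genes were called (7.05% higher, 9.61% lower), and against the DHPG inputs 51.8% of 12544 (26.5% higher, 25.3% lower). Against DHPG 1217 genes were called higher and 448 lower by at least 1 on the log2 scale, beside the 224 and 387 above. Over all genes the typical difference was not larger against DHPG. The median absolute log2 fold change was 0.326 against DHPG and 0.362 against TurboID-PSD95, with median SEs of 0.130 and 0.232. Shares called and FDRs against DHPG are thus to be read beside the small spread of its replicates, which may be technical.

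The 10 leading genes higher in the knockdown, ranked by p, included the surface proteins Met, Pcdh20, Fat4 and Cd24a. Met, the receptor tyrosine kinase for hepatocyte growth factor, was at 247 and 246 CPM in the knockdown inputs and 41.7, 51.2 and 29.5 CPM in the untreated inputs (log2 fold change 2.57, SE 0.19, FDR 1.15e-04). Enc1, a Kelch-family actin-binding protein of neurons, was at 903 and 969.6 CPM in the knockdown inputs and 247, 198 and 156 CPM in the untreated inputs (log2 fold change 2.200, SE 0.17, FDR 2.22e-04). Cd24a, a lipid-anchored surface glycoprotein of immature neurons, was at 170.2 and 151 CPM in the knockdown inputs and 39.4, 55.2 and 37.2 CPM in the untreated inputs (log2 fold change 1.85, SE 0.18, FDR 3.43e-04). The rule that named the leading genes took only genes whose knockdown and untreated libraries did not overlap. In these 3 genes the DHPG libraries were high as well: 197, 219.5 and 219.9 CPM for Met, 866, 865 and 857 CPM for Enc1 and 139, 132 and 122 CPM for Cd24a.

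Pcdh20, a protocadherin, was the exception among the 10. It was at 208 and 211 CPM in the knockdown inputs and 63.5, 55.0 and 53.5 CPM in the untreated inputs (log2 fold change 1.85, SE 0.13, FDR 1.15e-04), and the DHPG inputs were lower still, at 25.1, 26.7 and 22.6 CPM, which gave a log2 fold change of 3.09 against DHPG (FDR 9.26e-30). A further 5 rose by 1.16 to 1.63 on the log2 scale: the atypical cadherin Fat4 (1.63, FDR 1.88e-04), the α-tubulin Tuba1c (1.52, FDR 1.15e-04), the phospholipid flippase Atp8a1 (1.22, FDR 2.63e-04), the secreted glycoprotein Nell2 (1.21, FDR 2.22e-04) and squalene epoxidase Sqle (1.16, FDR 2.63e-04). On the log2 scale the mean of the DHPG inputs was nearer to the knockdown than to the untreated mean for 9 of the 10 genes. The log2 fold changes of the 9 named here ran from -0.08 to 3.09 against the DHPG inputs and from 0.86 to 2.24 against the Pan-TurboID inputs.

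Among the 10 lower genes were secretory, synaptic and RNA-binding proteins. Slc17a7, the vesicular glutamate transporter VGLUT1, was at 59.3 and 49.0 CPM in the knockdown inputs and 284, 243 and 284 CPM in the untreated inputs (log2 fold change -2.34, SE 0.15, FDR 8.05e-05). Spock3, a secreted proteoglycan, was at 60.1 and 53.8 CPM in the knockdown inputs and 267, 419 and 346 CPM in the untreated inputs (log2 fold change -2.61, SE 0.19, FDR 1.15e-04). Chgb, the dense-core vesicle protein chromogranin B, was at 395 and 393 CPM in the knockdown inputs and 1201, 1367 and 1315 CPM in the untreated inputs (log2 fold change -1.73, SE 0.11, FDR 8.05e-05). The DHPG inputs lay between the groups for Slc17a7 (163, 159 and 152 CPM), Spock3 (154, 177 and 172 CPM) and Chgb (444, 456 and 461 CPM).

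Srrm2, a scaffold of nuclear splicing speckles, was at 357 and 361 CPM in the knockdown inputs and 937, 1050.3 and 939.8 CPM in the untreated inputs (log2 fold change -1.46, SE 0.11, FDR 1.15e-04). Its DHPG level, at 879.7, 859.8 and 846 CPM, was close to the untreated one, and so was that of Nxph1, a secreted ligand of α-neurexins. Nxph1 was at 20.9 and 22.4 CPM in the knockdown inputs and 87.4, 92.1 and 76.0 CPM in the untreated inputs and at 72.7, 81.7 and 71.1 CPM in the DHPG inputs (log2 fold change -1.99, SE 0.17, FDR 2.22e-04). The remaining 5 fell by 1.29 to 2.09 on the log2 scale: the RNA-binding protein Elavl2 (-1.797, FDR 1.15e-04), the transcription factor Sox5 (-1.82, FDR 1.19e-04), the secreted leucine-rich protein Lgi2 (-1.89, FDR 2.22e-04), the adhesion molecule Ncam2 (-2.09, FDR 2.45e-04) and the surface protein Cd47 (-1.29, FDR 2.22e-04). The log2 fold changes of the 10 ran from -1.78 to -0.198 against the DHPG inputs and from -2.54 to -1.37 against the Pan-TurboID inputs, and on the log2 scale the DHPG mean was nearer to the knockdown for 6. The 20 genes kept their calls whichever library was left out.

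**Figure D2:**
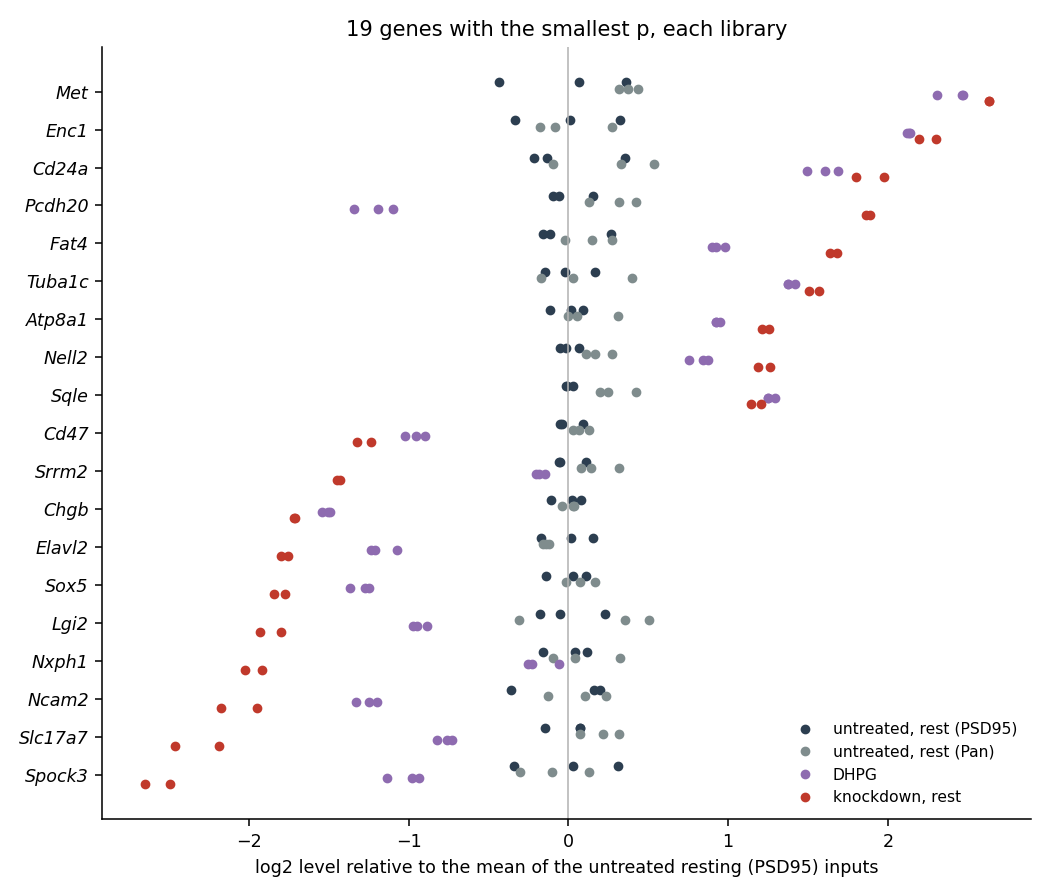
Level of 19 leading genes (9 higher, 10 lower) in each resting and DHPG input, as log2 difference from the mean of the untreated TurboID-PSD95 inputs; points are libraries, coloured by group. By the rule that chose the genes the knockdown libraries stand apart from the untreated TurboID-PSD95 ones, and the DHPG libraries follow the knockdown for genes such as Met and Enc1 but not for Pcdh20, Srrm2 or Nxph1.

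Neuronal classes were described with marker lists, each given by the count of tested members called in each direction and by its median, to be read beside the shares over all genes. Counts under another setting are given where they moved by more than 1.5 times and at least 2 genes. The fits of 10 inputs add the depolarized knockdown and untreated TurboID-PSD95 inputs, and the replicate block pairs libraries of like number. GABAergic interneurons make the inhibitory transmitter GABA and are a minority of cortical neurons. Of the interneuron markers 17 of 18 passed the filter on low counts and were tested. 11 were lower in the knockdown, against 8.69% of all genes tested, 0 were higher, and the median log2 fold change was -1.16. Their summed level was 2247 to 2249 CPM in the knockdown inputs, 4528 to 6788 CPM in the untreated inputs and 4612 to 4784 CPM in the DHPG inputs, so the knockdown inputs did not overlap either group. In bulk inputs fewer cells of a type and fewer footprints per cell cannot be told apart.

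Gad1 and Gad2 encode the enzymes that make GABA. Gad1 was at 234 and 228 CPM in the knockdown inputs and 491, 645 and 463 CPM in the untreated inputs (log2 fold change -1.22, SE 0.15, FDR 8.18e-04), and Gad2 at 87.0 and 82.1 CPM in the knockdown inputs and 200.3, 221 and 158 CPM in the untreated inputs (log2 fold change -1.21, SE 0.16, FDR 0.00109). Maf, a transcription factor of interneurons, was at 29.4 and 27.9 CPM in the knockdown inputs and 113, 169 and 109.6 CPM in the untreated inputs (log2 fold change -2.198, SE 0.21, FDR 3.43e-04). The 3 genes were lower against the DHPG inputs as well, with log2 fold changes of -1.22 for Gad1, -1.24 for Gad2 and -1.64 for Maf, and they kept their calls with each library left out. For the list, 15 of 17 markers were lower against DHPG (median -1.19), beside 25.3% of all genes. Against Pan-TurboID 12 were lower (median -1.17), beside 9.61% of all genes, and none was higher in either comparison. The counts against the untreated inputs were 0 higher and 6 lower without knockdown replicate 1 or 2. Pvalb, a marker of mature fast-spiking interneurons, was below 1 CPM throughout the 5 libraries and was not tested.

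Markers of cortical excitatory neurons, all 15 tested, had 5 higher and 3 lower members and a median of -0.105. The transporter pair for vesicular glutamate moved in opposite directions: VGLUT1 (Slc17a7) fell, as given above, while Slc17a6 (VGLUT2), which is typical of younger cortex and subcortical neurons, was at 131 and 139 CPM in the knockdown inputs and 42.1, 42.1 and 53.5 CPM in the untreated inputs (log2 fold change 1.55, SE 0.15, FDR 3.66e-04). The DHPG inputs were at 89.5, 85.1 and 98.2 CPM for Slc17a6, between the groups, with the knockdown above them (log2 fold change 0.58, FDR 6.21e-09). Bhlhe22, a transcription factor of postmitotic cortical neurons, was at 181 and 209 CPM in the knockdown inputs and 64.6, 82.1 and 56.6 CPM in the untreated inputs (log2 fold change 1.51, SE 0.16, FDR 5.12e-04), and Neurod1, a transcription factor of neuronal differentiation, at 52.8 and 46.4 CPM in the knockdown inputs and 13.6, 12.9 and 9.05 CPM in the untreated inputs (log2 fold change 2.02, SE 0.22, FDR 5.63e-04). Bhlhe22 stood at 221, 201 and 191 CPM in the DHPG inputs, where the knockdown did not pass the test (log2 fold change -0.06, FDR 0.419). The list had 3 higher and 2 lower without knockdown replicate 1, its median ran from -0.11 to 0.12 over the alternatives, and against DHPG it had 6 higher and 8 lower of 15 (median -0.32).

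Of the genes of young neurons and growing axons, all 15 tested, 5 were higher and 1 was lower, with a median of 0.399. Crmp1, a collapsin response mediator of axon guidance, was at 2951 and 2879 CPM in the knockdown inputs and 1445, 1595 and 1424 CPM in the untreated inputs (log2 fold change 0.96, SE 0.096, FDR 4.17e-04). Dpysl3 (CRMP4), of the same family, was at 4359.9 and 4307 CPM in the knockdown inputs and 2359, 2442 and 2131 CPM in the untreated inputs (log2 fold change 0.89, SE 0.097, FDR 5.63e-04), and Tubb2b, a β-tubulin of developing neurons, at 4925 and 4963 CPM in the knockdown inputs and 3066, 2624 and 2258 CPM in the untreated inputs (log2 fold change 0.88, SE 0.13, FDR 0.00179). Dcx (doublecortin), a microtubule protein of migrating neurons, rose too (0.69, FDR 0.00512). The DHPG inputs were as high as the knockdown, at 2942, 2880.1 and 2797 CPM for Crmp1 and 4521, 4532 and 4537 CPM for Dpysl3, and against them the list had 2 higher and 9 lower with a median of -0.17. Among the 4 genes a call was lost without knockdown replicate 1 or knockdown replicate 2 for Dcx (FDR 0.0790 to 0.0997). The list had 3 higher and 0 lower without knockdown replicate 1 or 2 and 8 higher and 1 lower without untreated replicate 1 or with the replicate block or with the CDS length trend removed, and its median was 0.62 with that trend removed.

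Of the pan-neuronal markers, all 16 tested, 8 were lower and 1 was higher (median -0.43). Their summed level overlapped between groups, at 17198 to 17514 CPM in the knockdown and 16156 to 18583 CPM in the untreated inputs. That sum includes the abundant higher member, Tubb3, given below, so its overlap does not show that the other members kept their level. Snap25, the release-machinery SNARE, was at 186 and 170.1 CPM in the knockdown inputs and 359, 399 and 345 CPM in the untreated inputs (log2 fold change -1.06, SE 0.12, FDR 5.94e-04). Genes of neuronal intermediate filaments fell too: Nefl, the light neurofilament chain (-1.05, FDR 0.00456), and Ina, α-internexin (-0.92, FDR 0.00215). The single higher member was Tubb3, the neuronal β-tubulin, at 4099.5 and 4241 CPM in the knockdown inputs and 2083, 1930.4 and 1520.0 CPM in the untreated inputs (log2 fold change 1.16, SE 0.13, FDR 6.12e-04), with 3733, 3754 and 3609 CPM in the DHPG inputs. Against the DHPG inputs the list had 3 higher and 12 lower of 16 (median -0.36). The pan-neuronal counts were 1 higher and 2 lower without knockdown replicate 1, 1 higher and 1 lower without knockdown replicate 2 and 1 higher and 5 lower in one fit of 10 inputs. The threshold was missed without knockdown replicate 1 for Nefl (FDR 0.0658) and without knockdown replicate 2 for Nefl and Ina (FDR 0.0629 to 0.0762).

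Astrocyte markers lay within the range of the untreated inputs in sum and above the DHPG inputs. Of the list 14 of 16 were tested, 0 were higher and 2 lower (median -0.197), and the summed level was 1704 to 1709 CPM in the knockdown inputs, 1537 to 2916 CPM in the untreated inputs and 589 to 604 CPM in the DHPG inputs. Slc1a2, the glutamate transporter GLT-1, was at 105 and 104 CPM in the knockdown inputs and 313, 282 and 244 CPM in the untreated inputs (log2 fold change -1.44, SE 0.14, FDR 3.43e-04), and Sox9, an astrocyte and progenitor transcription factor, at 80.5 and 78.7 CPM in the knockdown inputs and 129, 136 and 113 CPM in the untreated inputs (log2 fold change -0.68, SE 0.14, FDR 0.00907). Gfap, the astrocytic filament protein, was at 16.7 and 17.5 CPM in the knockdown inputs and 70.9, 12.9 and 10.3 CPM in the untreated inputs and did not pass the test (log2 fold change -0.97, FDR 0.597). Gjb6, the gap junction protein connexin 30, was at 0 in all 5 libraries. Against DHPG the list had 13 higher and 1 lower of 14 (median 2.19), beside 26.5% higher and 25.3% lower of all genes. The call of Sox9 was lost without knockdown replicate 1 or knockdown replicate 2 (FDR 0.148 to 0.160). The list had 2 higher and 2 lower without untreated replicate 1 and 1 higher and 4 lower with the replicate block, and its median turned to 0.28 without untreated replicate 1. Whether the amount of glial RNA in the dishes bears on the neuronal lists was not tested.

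Oligodendrocyte lineage markers were at low levels, 243 to 247 CPM in the knockdown inputs, 287 to 711 CPM in the untreated inputs and 73.3 to 78.2 CPM in the DHPG inputs in sum. Of the members 13 of 17 were tested, 1 was higher and 1 lower, with a median of -1.02. Olig2, the lineage transcription factor, was at 27.4 and 22.2 CPM in the knockdown inputs and 51.9, 82.2 and 51.7 CPM in the untreated inputs (log2 fold change -1.33, SE 0.24, FDR 0.00500). Pdgfra, the receptor of the precursors, was at 20.8 and 18.0 CPM in the knockdown inputs and 143, 176 and 49.1 CPM in the untreated inputs, which missed the threshold (log2 fold change -2.69, FDR 0.0624). Mog, a marker of mature myelin, was at 0 in all 5 libraries. The call of Olig2 was lost without knockdown replicate 2 (FDR 0.0983). The list had 0 higher and 1 lower without knockdown replicate 1 or untreated replicate 2, 0 higher and 0 lower without knockdown replicate 2, 1 higher and 3 lower without untreated replicate 1, 1 higher and 6 lower without untreated replicate 3, 2 higher and 4 lower by the likelihood ratio test, 1 higher and 4 lower by DESeq2 or by voom over 10 inputs, 1 higher and 7 lower with the replicate block and 1 higher and 2 lower in one fit of 10 inputs. Its median was -0.56 without untreated replicate 2 and -0.54 without the filter. Against DHPG it had 10 higher and 0 lower of 11 (median 1.83).

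Microglia markers were scarce in every library. Of the list 8 of 18 were tested, 4 of them higher and 0 lower, with a median of 2.86 (2.51 with 3 genes of near-zero untreated counts set at the lower bound of their count ratio). Members such as Tyrobp and Itgam passed the filter on low counts only through the knockdown libraries, so this count and median describe the members that passed and lean upward. Over the whole list the summed level was 90.0 to 94.0 CPM in the knockdown inputs, 41.4 to 50.9 CPM in the untreated inputs and 21.4 to 24.0 CPM in the DHPG inputs. Tyrobp, the microglial signalling adaptor DAP12, had raw counts of 18 and 44 in the knockdown and of 1, 0 and 0 in the untreated inputs, a ratio of 99.0 with a 95% exact counting interval of 17.1 to 3974 (FDR 0.00417). Itgam (CD11b) had 14 and 36 counts against 1, 0 and 0, a ratio of 79.9 (13.7 to 3217, FDR 0.00716). The complement gene C1qa was at 5.58 and 7.27 CPM in the knockdown inputs and 0.363, 1.74 and 0 CPM in the untreated inputs (FDR 0.0281). Tmem119 was at 0 in all 5 libraries. The intervals cover counting error only. Ratios and FDRs of genes admitted through the knockdown libraries alone are not read as support, since the filter favoured a high knockdown level.

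The microglial counts turned on single libraries and on the test, with 1 higher and 0 lower without knockdown replicate 1, 0 higher and 0 lower without knockdown replicate 2, 7 higher and 0 lower without the filter on low counts or by voom over 10 inputs, 7 higher and 1 lower by the likelihood ratio test and 2 higher and 1 lower by DESeq2. By gene, calls were lost without knockdown replicate 1 for Itgam and C1qa (FDR 0.0605 to 0.178) and without knockdown replicate 2 for Tyrobp, Itgam and C1qa (FDR 0.150 to 0.260). The tested members were above the DHPG inputs as well, 8 of 8 beside 26.5% of all genes, from which nothing is read since the filter admitted some through the knockdown libraries alone. The part of microglial RNA in the other results was not tested.

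Of the progenitor and cell cycle genes, all 15 tested, 2 were lower: the stem cell transcription factor Sox2 (-0.77, FDR 0.00857) and the Notch target Hes5 (-1.56, FDR 0.0269). Here the summed level was 1787 to 1878 CPM in the knockdown inputs, 1014 to 2662 CPM in the untreated inputs and 453 to 461 CPM in the DHPG inputs. Of the vascular and fibroblast markers 9 of 14 were tested and 3 were lower, while the median was 0.51 (-1.28 to 0.73 over the alternatives, and -0.596 and -0.92 without knockdown replicates 1 and 2). The lower ones were matrix genes: the collagens Col1a2 (-2.68, FDR 0.00103) and Col1a1 (-0.88, FDR 0.00173) and the proteoglycan Dcn (-3.71, FDR 0.00622). Col1a2 was at 16.3 and 14.0 CPM in the knockdown inputs and 132, 67.2 and 85.5 CPM in the untreated inputs. No member of either list was higher, and the endothelial markers Cldn5 and Cdh5 were below 1 CPM in each of the 5 libraries. The sum of the vascular and fibroblast list was 862 to 863 CPM in the knockdown inputs, 669.9 to 1166 CPM in the untreated inputs and 170.0 to 180.4 CPM in the DHPG inputs. Several of these calls were lost without knockdown replicate 1 for Sox2, Hes5, Col1a1 and Dcn (FDR 0.0637 to 0.193), without knockdown replicate 2 for Sox2, Hes5 and Dcn (FDR 0.0667 to 0.216) and without untreated replicate 2 for Hes5 (FDR 0.0629). The progenitor list had 0 higher and 0 lower without knockdown replicate 1 or 2, 4 higher and 3 lower without untreated replicate 1, 0 higher and 4 lower without untreated replicate 3, 2 higher and 3 lower by DESeq2 and 2 higher and 5 lower with the replicate block. Its median was -0.58, and it was -0.35 without knockdown replicate 1 and -0.24 without untreated replicate 1. The vascular and fibroblast list had 0 higher and 1 lower without knockdown replicate 1 or in one fit of 10 inputs, 4 higher and 4 lower without untreated replicate 1, 2 higher and 4 lower by the likelihood ratio test or by DESeq2 and 3 higher and 4 lower with the replicate block. Against DHPG the progenitor list had 12 higher and 0 lower of 14 (median 1.61) and the vascular and fibroblast list 8 higher and 1 lower of 9 (median 2.41).

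Counts of the synaptic lists are to be read beside the 6.87% of all genes called higher and 8.69% called lower. Among these lists, presynaptic active zone and release genes, which dock and prime vesicles, had the lowest median. With all 22 tested, 13 were lower, 1 was higher and the median log2 fold change was -0.58. Their summed level was 3967 to 3990.0 CPM in the knockdown inputs, 5249.5 to 5896 CPM in the untreated inputs and 5477 to 5501 CPM in the DHPG inputs. Pclo, the giant scaffold piccolo, was at 384 and 395 CPM in the knockdown inputs and 761, 868 and 929 CPM in the untreated inputs (log2 fold change -1.14, SE 0.12, FDR 4.17e-04). Cplx1, complexin 1, which clamps and promotes fusion, was at 47.9 and 36.2 CPM in the knockdown inputs and 125, 161 and 128 CPM in the untreated inputs (log2 fold change -1.73, SE 0.18, FDR 4.67e-04). Ppfia4, a liprin-α, was at 9.45 and 9.82 CPM in the knockdown inputs and 36.8, 38.2 and 32.0 CPM in the untreated inputs (log2 fold change -1.91, SE 0.22, FDR 6.12e-04), and Snap25 is given above. All 4 were lower against DHPG as well, with log2 fold changes of -0.59 for Pclo, -1.24 for Cplx1, -1.07 for Snap25 and -1.15 for Ppfia4. Against DHPG the list had 0 higher and 18 lower of 22 (median -0.54), beside 26.5% higher and 25.3% lower of all genes, and it had 13 lower against Pan-TurboID (median -0.53). The 4 genes kept their calls whichever library was left out, while the list had 0 higher and 6 lower without knockdown replicate 1 and 0 higher and 5 lower without knockdown replicate 2.

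Of the synaptic vesicle proteins 24 of 25 were tested, 6 higher and 8 lower (median -0.15). The transmitter transporters were among those called, with Slc17a7 and Slc17a6 as above and Slc32a1, the vesicular GABA transporter, at 120.5 and 128 CPM in the knockdown inputs and 271, 459.7 and 348 CPM in the untreated inputs (log2 fold change -1.55, SE 0.198, FDR 0.00147). Syt4, a synaptotagmin of dense-core vesicles, was at 636 and 607 CPM in the knockdown inputs and 271, 374 and 298 CPM in the untreated inputs (log2 fold change 0.97, SE 0.13, FDR 0.00147), with the DHPG inputs at 634, 668 and 682 CPM. Against DHPG the vesicle list had 2 higher and 15 lower of 24 (median -0.34). The counts were 3 higher and 2 lower without knockdown replicate 1, 2 higher and 2 lower without knockdown replicate 2, 6 higher and 3 lower without untreated replicate 2 and 4 higher and 4 lower in one fit of 10 inputs, and the median ran from -0.25 to -0.07.

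Postsynaptic lists had medians near that of all genes. Of the density scaffolds and enzymes, all 25 tested, 3 were higher and 3 lower (median -0.13), led by the calcium/calmodulin kinase subunits: Camk2b was at 985 and 948 CPM in the knockdown inputs and 496, 563 and 491 CPM in the untreated inputs (log2 fold change 0.89, SE 0.104, FDR 6.73e-04), and Camk2a at 203 and 194 CPM in the knockdown inputs and 115, 93.6 and 79.6 CPM in the untreated inputs (log2 fold change 1.02, SE 0.16, FDR 0.00261). The DHPG inputs were at 1107, 1054 and 1009.9 CPM for Camk2b and 364, 338 and 339.6 CPM for Camk2a, above the knockdown. Of the 27 glutamate receptor genes 6 were higher and 3 lower (median 0.13). Grin2b, the NMDA receptor subunit that prevails early in development, was at 380.4 and 386 CPM in the knockdown inputs and 202, 196 and 228 CPM in the untreated inputs (log2 fold change 0.87, SE 0.11, FDR 0.00111). Gria2, the AMPA subunit that limits calcium entry, was at 758 and 743 CPM in the knockdown inputs and 423, 349 and 448 CPM in the untreated inputs (log2 fold change 0.87, SE 0.12, FDR 0.00173), and Grm3, a group II metabotropic receptor, at 118 and 126 CPM in the knockdown inputs and 64.6, 61.4 and 52.98 CPM in the untreated inputs (log2 fold change 1.01, SE 0.14, FDR 0.00173). Grik3, a kainate receptor subunit, fell (-1.06, FDR 0.00417).

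Of 17 GABA receptor and inhibitory postsynapse genes 3 were higher and 1 lower (median -0.01). The receptor subunits Gabra2 (0.74, FDR 0.00305) and Gabra5 (0.76, FDR 0.00981) were higher, and Gphn, the scaffold gephyrin, was lower, at 96.5 and 109 CPM in the knockdown inputs and 136, 181 and 186 CPM in the untreated inputs (log2 fold change -0.72, SE 0.16, FDR 0.0132). Among the postsynaptic genes named, calls were lost without knockdown replicate 1 for Camk2a, Grik3, Gabra2, Gabra5 and Gphn (FDR 0.0504 to 0.210) and without knockdown replicate 2 for Grm3, Grik3, Gabra2, Gabra5 and Gphn (FDR 0.0523 to 0.184). The scaffold list had 1 higher and 0 lower without knockdown replicate 1, 2 higher and 0 lower without knockdown replicate 2, 3 higher and 0 lower without untreated replicate 2 and 3 higher and 1 lower without untreated replicate 3 or in one fit of 10 inputs. Glutamate receptors had 3 higher and 0 lower without knockdown replicate 1, 2 higher and 1 lower without knockdown replicate 2, 5 higher and 5 lower with the CDS length trend removed and 3 higher and 1 lower in one fit of 10 inputs. The inhibitory list had 0 higher and 0 lower without knockdown replicate 1 or 2. Over the alternatives the medians ran from -0.18 to -0.07 for scaffolds and from 0.12 to 0.200 for glutamate receptors. Against DHPG the lists had 3 higher and 15 lower of 25 (median -0.27) for scaffolds, 4 higher and 14 lower of 27 (median -0.25) for glutamate receptors and 4 higher and 8 lower of 17 (median -0.11) for the inhibitory list.

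Of 25 synaptic adhesion molecules 7 were higher and 5 lower (median -0.03). Nrxn3, a neurexin, was lower, at 219 and 219 CPM in the knockdown inputs and 336, 501 and 514 CPM in the untreated inputs (log2 fold change -1.05, SE 0.17, FDR 0.00391), and Slitrk2, a postsynaptic adhesion molecule, higher (0.902, FDR 0.00326). The cytoskeletal list had 4 higher and 7 lower of 20 (median -0.13). Map1a, a microtubule protein of mature dendrites, was at 1038 and 1015 CPM in the knockdown inputs and 1916, 2367 and 2201 CPM in the untreated inputs (log2 fold change -1.09, SE 0.11, FDR 4.61e-04), while Tuba1a, an α-tubulin prominent in developing neurons, was at 3190.4 and 3447 CPM in the knockdown inputs and 1812, 1631 and 1447 CPM in the untreated inputs (log2 fold change 1.01, SE 0.12, FDR 6.12e-04). Map1a was lower against DHPG too (-0.68, FDR 3.40e-20), whereas Tuba1a differed from DHPG by 0.098 (FDR 0.0135). Of 24 voltage-gated channel genes 4 were higher and 3 lower (median 0.11). Cacna2d1, an auxiliary calcium channel subunit, was at 460.5 and 469 CPM in the knockdown inputs and 163, 153 and 247 CPM in the untreated inputs (log2 fold change 1.297, SE 0.19, FDR 0.00268). Calls were lost without knockdown replicate 1 or knockdown replicate 2 for Nrxn3 and Slitrk2 (FDR 0.0639 to 0.0787). Adhesion genes had 0 higher and 0 lower without knockdown replicate 1 or 2, 6 higher and 8 lower without untreated replicate 1, 4 higher and 2 lower without untreated replicate 2, 5 higher and 3 lower without untreated replicate 3, 3 higher and 5 lower with the CDS length trend removed, 2 higher and 3 lower in one fit of 10 inputs and 4 higher and 3 lower by voom over 10 inputs. The cytoskeletal genes had 2 higher and 2 lower without knockdown replicate 1 and 2 higher and 1 lower without knockdown replicate 2. Channel genes had 1 higher and 0 lower without knockdown replicate 1 or 2 and 2 higher and 2 lower in one fit of 10 inputs. The medians of the adhesion, inhibitory and cytoskeletal lists lay near 0 and took either sign over the alternatives (-0.09 to 0.08, -0.05 to 0.098 and -0.19 to 0.004), and that of channels ran from 0.01 to 0.18. Against DHPG the lists had 8 higher and 11 lower of 25 (median -0.09) for adhesion, 4 higher and 13 lower of 20 (median -0.297) for the cytoskeleton and 2 higher and 18 lower of 24 (median -0.44) for channels.

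**Figure D3:**
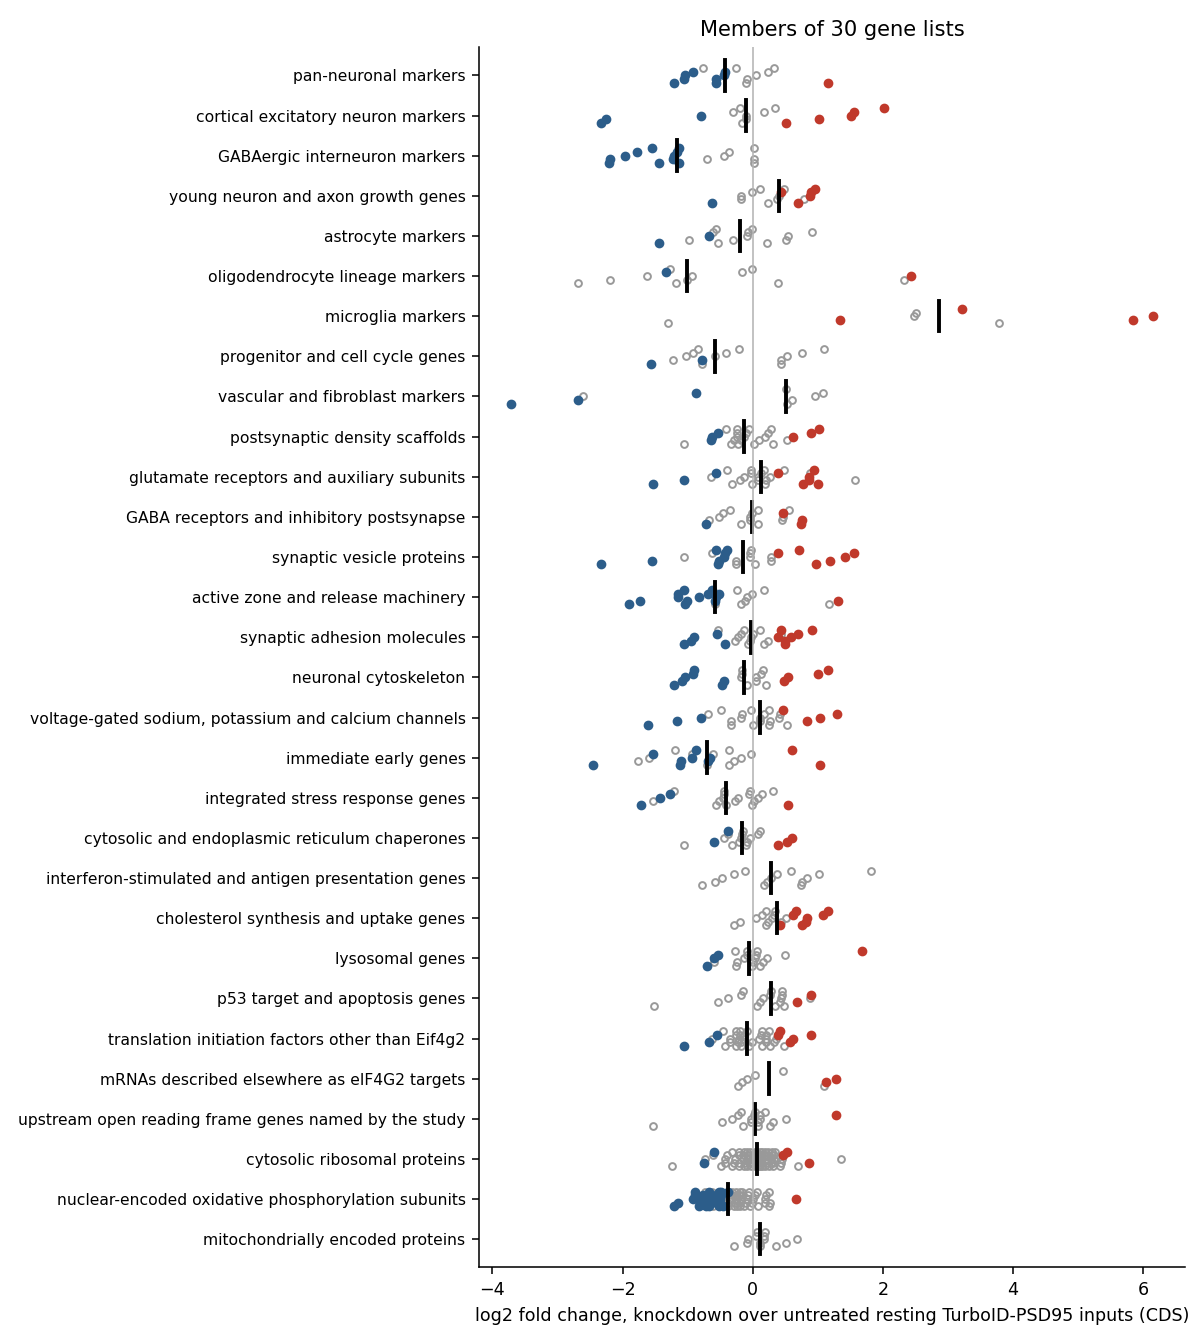
Log2 fold change of the tested members of the 30 lists, knockdown over untreated TurboID-PSD95 inputs; red and blue points are members higher and lower at FDR 0.05, open points did not pass, and the bar is the list median. Interneuron markers (median -1.16), active zone genes (-0.58) and oxidative phosphorylation subunits (-0.38) lie mostly to the left, and cholesterol genes (0.38) to the right.

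Immediate early genes, which neuronal activity switches on within minutes, gave more lower than higher calls in the resting knockdown. Counts of this list and of those below stand beside 6.87% higher and 8.69% lower of all genes. With all 21 tested, 8 were lower and 2 higher, with a median of -0.71 and summed levels of 1508 to 1512 CPM in the knockdown inputs, 2083 to 3332 CPM in the untreated inputs and 1040.1 to 1144 CPM in the DHPG inputs. The orphan nuclear receptor Nr4a2 was at 28.03 and 26.1 CPM in the knockdown inputs and 100.1, 203 and 139.8 CPM in the untreated inputs (log2 fold change -2.45, SE 0.28, FDR 0.00127), and its relative Nr4a3 at 213 and 199 CPM in the knockdown inputs and 359, 427 and 527 CPM in the untreated inputs (log2 fold change -1.099, SE 0.15, FDR 0.00166). Bdnf, the activity-regulated neurotrophin, was at 42.3 and 38.9 CPM in the knockdown inputs and 73.0, 109 and 80.9 CPM in the untreated inputs (log2 fold change -1.12, SE 0.19, FDR 0.00403), and the AP-1 subunit Jun fell (-0.69, FDR 0.00622). In the DHPG inputs Nr4a2 was at 30.7, 37.8 and 30.1 CPM and Bdnf at 23.9, 28.6 and 25.6 CPM, for Nr4a2 just above and for Bdnf below the knockdown, and against them the list had 11 higher and 5 lower (median 0.36). The list had 0 higher and 2 lower without knockdown replicate 1 or 2 and 2 higher and 16 lower without untreated replicate 1. The threshold was missed without knockdown replicate 1 or knockdown replicate 2 for Bdnf and Jun (FDR 0.0630 to 0.135).

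The share of all genes called against the untreated inputs, either way, was 15.6%, beside which the counts of the stress lists are to be read. The integrated stress response, which lowers global initiation and induces factors such as Ddit3, had 1 higher and 3 lower of 21 tested (median -0.41). The transcription factors Cebpb (-1.43, FDR 0.00735), Ddit3 (-1.72, FDR 0.0228) and Atf5 (-1.28, FDR 0.0336) were lower and the asparagine synthetase Asns was higher (0.54, FDR 0.0145). That list had 0 higher and 0 lower without knockdown replicate 1 or 2, 1 higher and 9 lower without untreated replicate 1, 1 higher and 1 lower without untreated replicate 2 or 3 and 1 higher and 5 lower by the likelihood ratio test, and its median was -0.17 without untreated replicate 2. Against DHPG it had 1 higher and 20 lower of 21 (median -0.76), beside 26.5% higher and 25.3% lower of all genes. Of the 18 chaperones 3 were higher and 2 lower (median -0.16). Interferon-stimulated and antigen presentation genes, a class that transfected RNA can induce, had 15 of 30 members tested and none called in either direction (median 0.29), with summed levels of 216 to 222 CPM in the knockdown inputs, 172 to 266 CPM in the untreated inputs and 187 to 190.2 CPM in the DHPG inputs. By edgeR 1 of them had an unadjusted p under 0.05, and DESeq2 called 0. Without untreated replicate 1 the interferon list had 1 higher and 1 lower (median 0.95), and its median was -0.01 without untreated replicate 2 and 0.02 without knockdown replicate 1. Against DHPG it had 8 higher and 1 lower of 13 (median 0.91). Of 19 p53 target and apoptosis genes 2 were higher, among them the p53 target Sesn1 (0.89, FDR 0.0303). Of 20 lysosomal genes 3 were lower, with prosaposin Psap at 2734 and 2677 CPM in the knockdown inputs and 3885, 4071 and 5174 CPM in the untreated inputs (log2 fold change -0.71, SE 0.13, FDR 0.00551), and 1 was higher. The calls of these 6 genes were lost without knockdown replicate 1 or knockdown replicate 2 for Cebpb, Ddit3, Atf5, Asns, Sesn1 and Psap (FDR 0.0968 to 0.335) and without untreated replicate 2 or untreated replicate 3 for Ddit3, Atf5 and Sesn1 (FDR 0.0556 to 0.102). Chaperones had 0 higher and 0 lower without knockdown replicate 1 or 2, 1 higher and 2 lower with the CDS length trend removed and 1 higher and 1 lower in one fit of 10 inputs or by voom over 10 inputs, with medians of -0.195 to -0.06 over the alternatives. The p53 targets had 0 higher and 0 lower without knockdown replicate 1 or 2 and 4 higher and 0 lower without untreated replicate 1. Lysosomal genes had 0 higher and 0 lower without knockdown replicate 1 or 2, 0 higher and 1 lower without untreated replicate 3 and 1 higher and 1 lower in one fit of 10 inputs. Against DHPG the lists had 7 higher and 4 lower of 18 (median 0.07) for chaperones, 5 higher and 3 lower of 18 (median 0.096) for p53 targets and 15 higher and 0 lower of 20 (median 0.32) for lysosomal genes.

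Cholesterol synthesis and uptake genes gave 8 higher and 0 lower calls among all 20 tested (median 0.38), and their sum was 8612 to 8771 CPM in the knockdown inputs, 5135 to 5810.0 CPM in the untreated inputs and 10091 to 10429.5 CPM in the DHPG inputs. Hmgcs1, the synthase that makes the precursor of the pathway, was at 3019 and 3108 CPM in the knockdown inputs and 1455, 1616 and 1238 CPM in the untreated inputs (log2 fold change 1.08, SE 0.12, FDR 5.63e-04). Fdps, which makes farnesyl diphosphate, rose (0.82, FDR 0.00179), as did Sqle. The DHPG inputs, without eIF4G2 siRNA, were higher still: against them the list had 1 higher and 15 lower of 20 (median -0.33), and Hmgcs1 was at 3296, 3503 and 3476 CPM there. Against Pan-TurboID 9 were higher. The list had 5 higher and 0 lower without knockdown replicate 1 and 3 higher and 0 lower without knockdown replicate 2, and the call of Fdps was lost without knockdown replicate 2 (FDR 0.0627).

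Of the respiratory chain subunits made from nuclear genes, all 73 tested, 29 were lower and 1 was higher, with a median of -0.38 and sums of 15405 to 15418 CPM in the knockdown inputs, 17671 to 20359 CPM in the untreated inputs and 17545 to 17772 CPM in the DHPG inputs. Uqcr11, a complex III subunit, was at 96.6 and 105 CPM in the knockdown inputs and 228, 273 and 195 CPM in the untreated inputs (log2 fold change -1.21, SE 0.15, FDR 9.87e-04). Ndufa12, of complex I, was at 52.0 and 49.1 CPM in the knockdown inputs and 109.8, 124 and 98.7 CPM in the untreated inputs (log2 fold change -1.15, SE 0.15, FDR 0.00119), and Ndufv3, also of complex I, was lower (-0.82, FDR 0.00194), as was Atp5g3, of the ATP synthase (-0.67, FDR 0.00316). Against DHPG the list had 3 higher and 45 lower of 73 (median -0.21), beside 26.5% higher and 25.3% lower of all genes. These proteins are short, and with each library's trend on CDS length removed 14 were lower (median -0.24). The list had 0 higher and 2 lower without knockdown replicate 1 or 2, and calls were lost without knockdown replicate 1 or knockdown replicate 2 for Ndufv3 and Atp5g3 (FDR 0.0629 to 0.109).

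The 13 proteins encoded in the mitochondrial genome gave 0 higher and 0 lower calls (median 0.11), with overlapping sums of 2268 to 2444 CPM in the knockdown and 1264 to 3134 CPM in the untreated inputs. By edgeR 0 of them had an unadjusted p under 0.05, DESeq2 called 0, and the list had 2 higher and 0 lower without untreated replicate 2 or with the replicate block, with medians of -0.17 to 0.41 over the alternatives. They were lower than in the DHPG inputs, 13 of 13 (median -1.498). Cytosolic ribosomal proteins had 3 higher and 2 lower calls, with 78 of 79 tested (median 0.07, and 0.01 to 0.22 over the alternatives). The list had 0 higher and 0 lower without knockdown replicate 1 or 2, 4 higher and 4 lower without untreated replicate 1, 2 higher and 4 lower without untreated replicate 3, 2 higher and 6 lower with the replicate block, 10 higher and 0 lower with the CDS length trend removed and 1 higher and 1 lower in one fit of 10 inputs. Against DHPG it had 64 higher and 1 lower of 77 (median 0.399). Ribosomal protein genes have near-identical copies elsewhere in the genome, so their counts are uncertain.

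**Figure D4:**
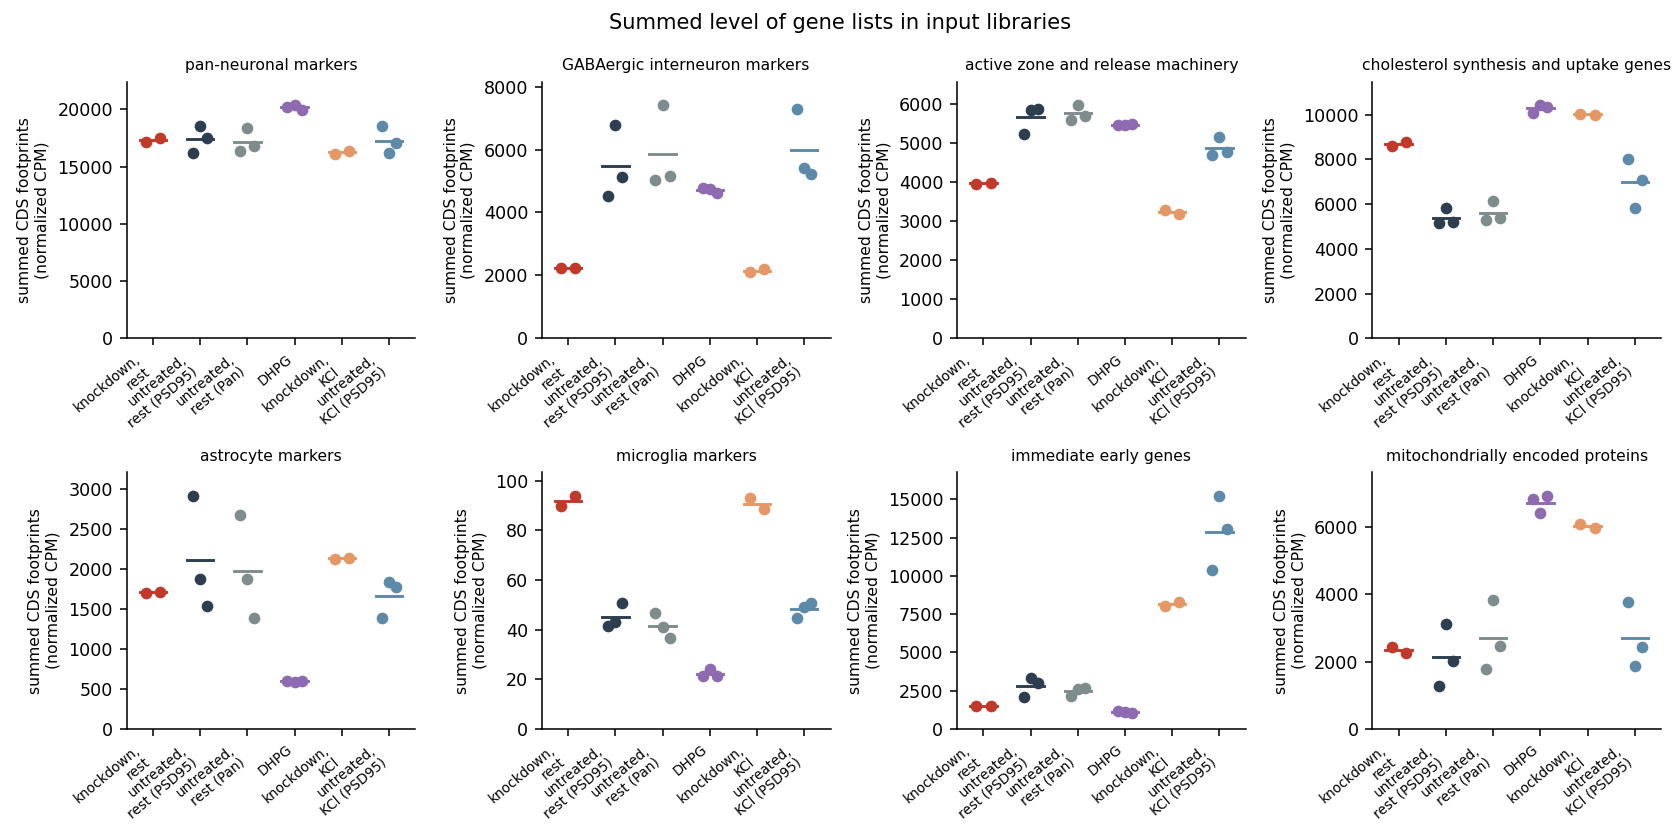
Summed CDS footprints (normalized CPM, linear axes from 0) of the members of 8 lists in 6 groups of inputs; points are libraries, lines group means. The interneuron and active zone sums of both knockdown groups lie below all other inputs, the cholesterol sum is high in the knockdown and in the DHPG inputs, and the astrocyte sum is lowest in the DHPG inputs.

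Of 39 initiation factor genes other than Eif4g2, all tested, 5 were higher and 3 lower (median -0.09, and -0.11 to -0.02 over the alternatives). Of all genes tested, 6.87% were higher and 8.69% lower. The lower ones include the paralogs Eif4g1 and Eif4g3 given above. Eif3l, a subunit of the eIF3 complex, was at 247 and 255 CPM in the knockdown inputs and 129, 145 and 129 CPM in the untreated inputs (log2 fold change 0.89, SE 0.11, FDR 0.00103), and Eif4a1, the initiation helicase, was higher (0.57, FDR 0.00857). In the DHPG inputs Eif3l was at 228, 249.8 and 253 CPM, and the knockdown did not differ from them past the threshold (log2 fold change 0.05, FDR 0.423). Of the 8 mRNAs described elsewhere as eIF4G2 targets 2 were higher and 0 lower (median 0.25). Myc, the growth-regulating transcription factor, was at 91.7 and 97.8 CPM in the knockdown inputs and 42.4, 49.0 and 37.5 CPM in the untreated inputs (log2 fold change 1.12, SE 0.16, FDR 0.00159). Apaf1, the apoptosome scaffold, was at 39.8 and 45.9 CPM in the knockdown inputs and 21.5, 11.8 and 18.6 CPM in the untreated inputs (log2 fold change 1.27, SE 0.25, FDR 0.00844). Both were also higher than in the DHPG inputs, at 55.5, 48.3 and 49.7 CPM for Myc and 20.5, 23.6 and 22.1 CPM for Apaf1 (log2 fold changes 0.89 and 0.97). Of the genes with upstream reading frames that the study singled out, 19 of 22 were tested, 1 (Apaf1) was higher and 0 lower (median 0.04). Their median took either sign over the alternatives (-0.03 to 0.10). That list was chosen by the study on its own experiments and is not independent evidence. Calls were lost without knockdown replicate 1 or knockdown replicate 2 for Eif4a1 and Apaf1 (FDR 0.0696 to 0.154). The initiation factor list had 1 higher and 0 lower without knockdown replicate 1 or 2, 6 higher and 5 lower without untreated replicate 1, 3 higher and 2 lower without untreated replicate 2, 2 higher and 4 lower without untreated replicate 3, 3 higher and 4 lower with the replicate block, 2 higher and 3 lower in one fit of 10 inputs and 3 higher and 3 lower by voom over 10 inputs. Against DHPG 26.5% of all genes were called higher and 25.3% lower. In that comparison initiation factors had 11 higher and 15 lower of 39 (median -0.07). The mRNAs described as targets had 4 higher and 0 lower of 8 (median 0.54). The genes with upstream reading frames had 3 higher and 3 lower of 19 (median 0.13).

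Against the Pan-TurboID inputs, where 7.05% of all genes were called higher and 9.61% lower, the lists not yet given stood as follows. Pan-neuronal markers had 2 higher and 9 lower of 16 (median -0.402), and excitatory markers had 4 higher and 4 lower of 15 (median 0.004). Young neuron genes had 6 higher and 1 lower of 15 (median 0.45), and astrocyte markers had 0 higher and 1 lower of 14 (median 0.005). Oligodendrocyte markers had 0 higher and 2 lower of 13 (median -0.85), and progenitor genes had 3 higher and 3 lower of 15 (median -0.45). Vascular and fibroblast markers had 0 higher and 4 lower of 9 (median 0.55), and microglia markers had 4 higher and 1 lower of 8 (median 2.24). As above, the filter admitted some microglia markers through the knockdown libraries alone. Glutamate receptors had 5 higher and 5 lower of 27 (median -0.09), and the inhibitory postsynapse had 1 higher and 2 lower of 17 (median -0.12). Density scaffolds had 5 higher and 4 lower of 25 (median -0.08), and vesicle proteins had 5 higher and 9 lower of 24 (median -0.19). Adhesion molecules had 4 higher and 8 lower of 25 (median -0.097), and the cytoskeleton had 4 higher and 7 lower of 20 (median -0.002). The median of the glutamate receptors thus had the opposite sign to that against TurboID-PSD95. Channels had 3 higher and 3 lower of 24 (median 0.06), and immediate early genes had 2 higher and 6 lower of 21 (median -0.42). The integrated stress response had 0 higher and 4 lower of 21 (median -0.38), and chaperones had 3 higher and 3 lower of 18 (median -0.103). Interferon-stimulated genes had 0 higher and 1 lower of 15 (median 0.505), and lysosomal genes had 1 higher and 4 lower of 20 (median -0.14). The p53 targets had 4 higher and 0 lower of 18 (median 0.32), and initiation factors had 6 higher and 3 lower of 39 (median 0.03). The mRNAs described as eIF4G2 targets had 3 higher and 0 lower of 8 (median 0.200), and the genes with upstream reading frames had 1 higher and 0 lower of 19 (median 0.01). Ribosomal proteins had 8 higher and 0 lower of 77 (median 0.19), and respiratory chain subunits had 1 higher and 26 lower of 73 (median -0.28). Mitochondrially encoded proteins had 0 higher and 0 lower of 13 (median -0.19).

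Ribosomes on 5′ untranslated regions (5′ UTRs) were compared next, since upstream reading frames lie there. Reads were placed by their 5′ ends at an offset of 0, so a ribosome on the main start codon is counted in the 5′ UTR. The 5′ UTR values below thus mix such ribosomes with those on upstream reading frames. The 5′ UTR share, footprints in the 5′ UTR over those in 5′ UTR and CDS of the same transcripts, was 15.5 and 15.5% in the knockdown inputs and 16.6, 22.5 and 20.6% in the untreated inputs. Both knockdown inputs were below all 3 untreated inputs, by 4.41 percentage points between means of 15.5 ± 0.0182% (SD, n = 2) and 19.9 ± 2.99% (SD, n = 3). An exact two-sided permutation test gave p = 0.2, the smallest value that 2 against 3 samples allow. The DHPG inputs, of the same processing run, were at 16.8, 15.8 and 15.7%, 0.608 points above the knockdown in the mean. The 3′ UTR share, over CDS and 3′ UTR, was 2.44 and 2.33% in the knockdown, 1.96, 2.02 and 2.17% in the untreated and 2.71, 2.55 and 2.64% in the DHPG inputs. Both knockdown inputs were above all untreated ones here, by 0.336 points in the mean (exact permutation p = 0.2, again the smallest possible).

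By gene, 5′ UTR footprints were tested with the library sizes and scaling of the CDS counts. 1286 of 10032 genes (12.8%) were called, 91 higher (0.907%) and 1195 lower (11.9%), with a median log2 fold change of -0.48 over all genes. The count ran from 53 without knockdown replicate 1 and 75 without replicate 2 to 2952 without untreated replicate 1, with 699 and 773 without untreated replicates 2 and 3. With all libraries kept and the replicate number as a block, 481 genes were called. Against the DHPG inputs 29.1% of 9306 genes were called and the median was -0.05. Eif4g2 itself had a lower 5′ UTR signal (log2 fold change -0.92, FDR 0.0433).

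**Figure D5:**
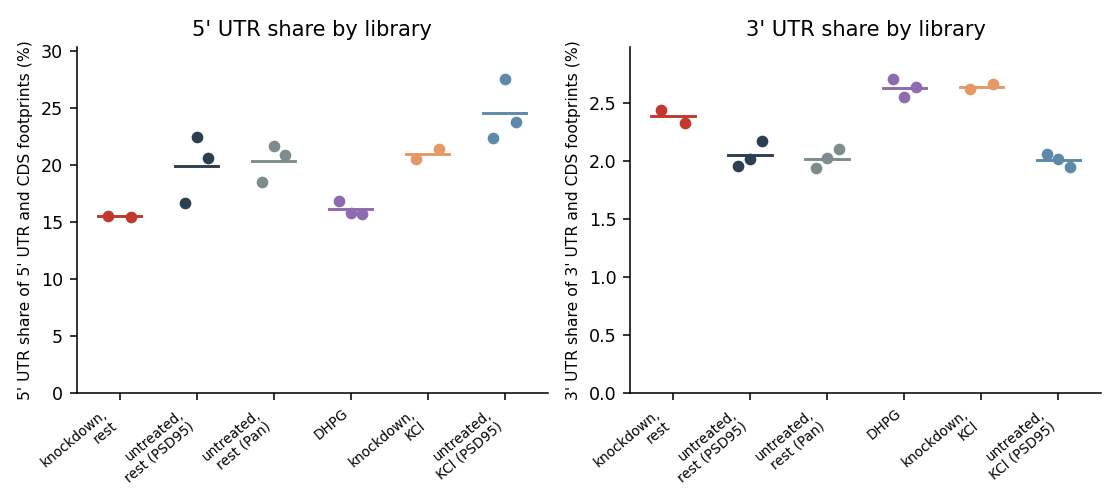
Share of footprints in the 5′ UTR (left) and 3′ UTR (right) by library, in percent, with axes from 0; points are libraries, lines group means. The knockdown inputs at rest (15.5 and 15.5%) lie below the untreated and the DHPG ones for the 5′ UTR, and above the untreated ones for the 3′ UTR.

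The genes that differed were described by their transcripts. The median CDS was 1386 nt over all genes tested, 1950.0 nt for those higher in the knockdown and 1440.0 nt for those lower. The log2 fold change and CDS length had a Spearman rho of 0.15 across genes, which are not independent replicates. It was 0.0549 against the Pan-TurboID inputs and 0.131 against the DHPG inputs. A matched 5′ UTR sequence was at hand for 12357 of the 12721 genes tested, and the 5′ UTR values here are over genes with one. It held at least 1 upstream ATG in 53.7% of those genes, 61.5% of the higher and 50.1% of the lower ones. Median 5′ UTR lengths were 195, 239 and 200 nt. The median CDS log2 fold change was -0.07 for genes without an upstream ATG and 0.03 for those with 3 or more. For 5′ UTR footprints these medians were -0.598 and -0.34. Against the DHPG inputs the CDS medians ran the other way, 0.03 without an upstream ATG and -0.05 with 3 or more. The hexamer CGCGGC, which the study ties to eIF4G2 binding, was present on the transcript strand in 25.6% of 5′ UTRs of all genes tested, 28.6% of the higher and 27.3% of the lower genes. These are descriptions of sequence and no test was run on them.

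The same contrast exists for neurons depolarized with 55 mM KCl for 1 h, with 2 knockdown and 3 untreated TurboID-PSD95 inputs, and a fit of all 10 inputs asked whether the knockdown difference at rest was another one after KCl. In the depolarized contrast 6.10% of 12886 genes were called higher and 6.93% lower. Eif4g2 was at 334 and 325 CPM in the depolarized knockdown and 593, 529.5 and 769 CPM in the depolarized untreated inputs (log2 fold change -0.93). Of the 20 genes with the smallest p at rest all 20 were called in the same direction. Those genes were chosen for their difference at rest. After KCl too the knockdown inputs lie in a processing run apart from the untreated ones, so the match is not independent support.

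The KCl counts come from the fit of 10 inputs, while the resting counts above come from the fit of the resting inputs alone. In the fit of 10 inputs the resting contrast called 1339 genes in place of 1979, so counts at rest and after KCl are not strictly alike. With that limit, some lists had counts after KCl near those at rest. Interneuron markers had 0 higher and 9 lower of 16 (median -1.06), and active zone genes had 1 higher and 10 lower of 22 (median -0.53). Cholesterol genes had 7 higher and 0 lower of 20 (median 0.44), and respiratory chain subunits had 0 higher and 25 lower of 73 (median -0.42). Pan-neuronal markers had 0 higher and 6 lower of 16 (median -0.44), and young neuron genes had 6 higher and 1 lower of 15 (median 0.46). The other lists are given in turn. Mitochondrially encoded proteins had 7 higher and 0 lower of 13 (median 1.32) after KCl and none called at rest. Adhesion molecules had 0 higher and 8 lower of 25 (median -0.31), and the inhibitory postsynapse had 0 higher and 3 lower of 17 (median -0.39). Astrocyte markers had 3 higher and 1 lower of 14 (median 0.62), and oligodendrocyte markers had 1 higher and 0 lower of 13 (median 0.55). Progenitor genes had 4 higher and 0 lower of 15 (median 0.63), so the medians of the astrocyte, oligodendrocyte and progenitor lists were above 0 after KCl and below 0 at rest. Excitatory markers had 5 higher and 2 lower of 15 (median 0.603), and vascular and fibroblast markers had 1 higher and 0 lower of 9 (median 1.46). Glutamate receptors had 2 higher and 2 lower of 27 (median -0.05), and density scaffolds had 1 higher and 1 lower of 25 (median -0.01). Vesicle proteins had 2 higher and 7 lower of 24 (median -0.400), and the cytoskeleton had 3 higher and 5 lower of 20 (median 0.03). Channels had 2 higher and 3 lower of 24 (median -0.08), and immediate early genes had 0 higher and 7 lower of 21 (median -0.54). The integrated stress response had 0 higher and 4 lower of 21 (median -0.31), and chaperones had 2 higher and 1 lower of 18 (median 0.13). Interferon-stimulated genes had 2 higher and 0 lower of 14 (median 0.76), and lysosomal genes had 1 higher and 3 lower of 20 (median 0.02). Initiation factors had 2 higher and 1 lower of 39 (median 0.03), and the mRNAs described as eIF4G2 targets had 2 higher and 0 lower of 8 (median 0.37). The genes with upstream reading frames had 1 higher and 1 lower of 19 (median -0.24), and ribosomal proteins had 9 higher and 0 lower of 78 (median 0.28). The p53 targets had 0 higher and 0 lower of 19 (median 0.400), and microglia markers 5 higher and 0 lower of 8 (median 3.901). These 8 are the microglia markers tested at rest, some admitted by the filter through the knockdown libraries alone, so their count and median lean upward. Whether a list as a whole differed between rest and KCl was not tested.

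A change of the knockdown contrast between rest and KCl passed the test for 1 gene of 12886 (0.00776%), with 708 genes at an unadjusted p under 0.05. With 2 knockdown libraries in each state, genes that missed this test are not shown to have kept their difference. The gene that passed was Nr4a2. It was at 28.03 and 26.1 CPM in the resting and 269 and 248 CPM in the depolarized knockdown inputs, and at 100.1, 203 and 139.8 CPM in the resting and 221, 297 and 267 CPM in the depolarized untreated inputs. The groups were thus apart at rest and overlapped after KCl (log2 fold change -0.02 after KCl, difference 2.44, SE 0.32, FDR 0.0126). No gene was called without either resting knockdown replicate, either depolarized knockdown replicate, or depolarized untreated replicate 2 or 3, where edgeR gave 338 to 1076 genes at an unadjusted p under 0.05. 1 was called without resting untreated replicate 1, 2 were without resting untreated replicate 2, and 3 each without resting untreated replicate 3 or depolarized untreated replicate 1. DESeq2 called 15 genes.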

How the data were processed

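Ribosome-protected fragments were measured in 16 input libraries of resting, depolarized, DHPG-treated and eIF4G2 knockdown neurons, 5 of which form the main comparison. Per the file headers, the authors counted the 5′ ends of reads of 25 to 100 nt per transcript segment with plastid at an offset of 0, on mm10 alignments whose names mark rRNA and duplicate removal. The deposited values used were these raw counts. Counts on CDS and UTR segments of the longest coding transcript of each gene (22375 genes, GENCODE M21) were summed. Of 67238 coding transcripts, 574 matched no name and were left out. Total counts per library were 13257998 and 19362606 in the knockdown and 10912541 to 30481462 in the untreated inputs.

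Genes passing filterByExpr (minimum count 10) were tested with the quasi-likelihood F test of edgeR 4.0.16 in R 4.3.3, TMM factors and Benjamini-Hochberg adjustment over all genes tested, at FDR 0.05. The SE was the log2 fold change over the root of F. The fits were tested on simulated counts with known changes. Alternatives used RLE factors, no filter, the likelihood ratio test of edgeR that the methods name, DESeq2 1.42.0, the replicate number as a block, another transcript, removal of the CDS length trend, a fit of 10 inputs, limma 3.58.1 voom with a random block, and each library left out.

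Genes were named by rule: Eif4g2 and its paralogs, the 10 with the smallest p in each direction (groups apart, mean of at least 10 CPM in the higher group), and up to 4 tested members per list with the smallest p. Cell type markers were also named for their level. Some genes that the rule picked are not reported here. The members and the 30 lists were chosen with earlier results of these data known. Groups came from the titles. Pulldown libraries were not used here.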

Additional observations from a re-analysis of the deposited data

Results flagged for a closer look

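The knockdown difference of Nr4a2, an activity-induced nuclear receptor, was more positive after KCl than at rest by 2.44 on the log2 scale (edgeR quasi-likelihood interaction test, SE 0.32, FDR 0.0126). It was the single gene of 12886 to pass that test, and it did not pass without either knockdown library of either state, nor without depolarized untreated replicate 2 or 3.

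The share of footprints in 3′ UTRs, which no comparison of genes used, was 0.336 percentage points higher in the knockdown inputs than in the untreated inputs, with both knockdown libraries above all 3 untreated ones (exact two-sided permutation p = 0.2, the smallest that 2 against 3 samples allow). The DHPG inputs of the same processing run, without eIF4G2 siRNA, had shares of 2.55 to 2.71%, above the 2.33 and 2.44% of the knockdown inputs.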

How the results depend on the processing

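Knockdown and experiment batch coincide in the main comparison, and 2 knockdown libraries limit every call. The number of genes called against the untreated TurboID-PSD95 inputs (1979) stayed within 1.5 times under every alternative other than leaving out a library (1339 to 2551). With 1 library left out it ran from 265 to 3246. Left-out libraries gave 403 to 2612 genes against Pan-TurboID, 5644 to 6230 against DHPG, 0 to 3 for the change between rest and KCl, and 53 to 2952 for 5′ UTR counts. With a library left out the log2 fold change of Eif4g2 ran from -1.02 to -0.97 and the 5′ UTR share difference from -6.05 to -3.12 points, and Eif4g2 was at -1.07 with the CDS length trend removed. For the change between rest and KCl 7 genes were called without the filter, 6 by the likelihood ratio test and 15 by DESeq2. The 574 transcripts without a name and the low counts of glial genes limit the lists, and 5′ UTR counts are thinner than CDS counts.

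Of the log2 fold changes of named genes under the alternatives that kept all libraries, 895 kept direction and side of the threshold, 29 newly passed it and 5 lost it. With a library left out 525 kept both, 14 passed, 124 were lost and 2 reversed. The reversals were mt-Nd6, at 0.0215 without knockdown replicate 2 and -0.68 without replicate 1, and Nsun3, at -0.68 without knockdown replicate 2 and 0.712 without replicate 1. Neither gene was called with all libraries in the main comparison (edgeR quasi-likelihood FDR 0.58 for mt-Nd6 and 0.85 for Nsun3). The cause was not tested.

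The replicate numbers of knockdown and untreated inputs share only a number, and deviations of like-numbered libraries correlated by at most 0.0183 in size for numbers 1 and 2 across genes. With the replicate number as a block, 2551 genes were called against TurboID-PSD95, 3109 against Pan-TurboID, 5955 against DHPG, 1 for the change between rest and KCl and 481 for 5′ UTR counts, and the log2 fold change of Eif4g2 was -0.97.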
